A study of Mus musculus with 6 samples.

Results

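The genes described here are 37 mouse genes of ribosome biogenesis and the nucleolus, the nuclear compartment in which ribosomes are made. The list follows the genes' functions, but it was drawn up with earlier results of these data known, so it is no independent choice. All 37 of 37 were measured among the 19938 genes that the array annotation names through a probe set with 1 symbol. Each gene was read from its brightest probe set. The study silenced MnSOD, the mitochondrial superoxide dismutase encoded by Sod2, in AML-12 cells, a mouse hepatocyte line, and measured total RNA on Affymetrix Mouse Gene 1.0 ST arrays. The siMnSOD group (3 arrays) carried a retroviral pSUPER.retro.puro hairpin against MnSOD, which the design text says was built for a low level of silencing. The siScramble group (3 arrays) carried a hairpin in the same vector that recognises no gene, and both groups were stable puromycin-selected cells. The titles number the arrays as biological replicates 1 to 3 and the design text speaks of separate frozen batches of cells. No label says whether these came from separate transductions, so p-values measure the spread between these arrays, and their number limits the precision.

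Ribosome production begins when RNA polymerase I copies the ribosomal DNA into a long precursor RNA in the nucleolus. Small nucleolar ribonucleoproteins (snoRNPs) then mark that RNA for methylation (box C/D) or pseudouridylation (H/ACA), and large assemblies of helicases, WD-repeat proteins and nucleases cut it and fold it with ribosomal proteins into the small and the large subunit. In hepatocytes, as in other cells, this pathway is known to follow growth signals, and many of its genes are known targets of the transcription factor Myc.

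Sod2 itself had log2 intensities of 6.63, 6.92 and 5.71 in siMnSOD cells, against 7.95, 7.99 and 8.20 in siScramble cells, and fell by 1.63 on the log2 scale to 32.4% of the siScramble level (SE 0.30, limma adjusted p = 0.037). That call was lost when either of replicates 1 and 2 was left out of either group, with adjusted p between 0.072 and 0.13, when the arrays were centred on their medians (0.069), and when all probe sets were tested (0.063). The replicate 3 arrays stood apart in both groups: over all probe sets, Pearson's r was 0.9921 between siMnSOD 1 and 2 but 0.9843 and 0.9847 between these and siMnSOD 3, and 0.9934 between siScramble 1 and 2 but 0.9762 and 0.9763 between these and siScramble 3. Median intensity per array was 27.9, 26.8 and 31.0 in siMnSOD cells and 28.1, 29.3 and 33.6 in siScramble cells. Of the measured hepatocyte markers, Alb (3.50 to 4.02 in siMnSOD, 3.51 to 3.98 in siScramble) and Ttr (3.70 to 3.98 in siMnSOD, 3.63 to 3.74 in siScramble) lay under a background guide of 4.28. The guide is the 95th percentile of 1027 olfactory receptor genes. Krt18, from the same list, lay at 12.32 to 12.57 in siMnSOD and 11.86 to 12.62 in siScramble. In all, 3 of 12 measured hepatocyte markers lay under the guide and 1 was called, Hnf4a, which was higher, and the summed log2 level of the 12 was 13.95 to 14.15 in siMnSOD against 13.45 to 13.89 in siScramble, with no overlap. Of the measured markers of other liver cells, 4 of 8 leukocyte, 5 of 6 endothelial, 3 of 7 stellate or fibroblast and 1 of 4 biliary genes lay under the guide. Their summed log2 level ranged over 8.35 to 8.52 in siMnSOD against 8.27 to 8.37 in siScramble for leukocyte genes. It was 6.59 to 6.88 against 6.59 to 6.78 for endothelial genes and 7.56 to 7.81 against 7.61 to 7.79 for stellate or fibroblast genes. For biliary genes it was 11.93 to 12.03 against 10.89 to 11.68, so this list, like the hepatocyte list, was higher in siMnSOD with no overlap. The part of all these marker genes in the results below was not tested.

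Across all 6 arrays, none of the 37 ribosome biogenesis genes passed the test in either direction. These are bulk RNA levels, in which fewer cells of a kind and less RNA per cell cannot be told apart. A gene was called at an adjusted p under 0.05 (limma, Benjamini-Hochberg over all tested probe sets), a threshold passed upward by 2.17% and downward by 1.58% of all genes, and by 4.18% and 3.02% of the 10050 genes brighter than the median gene. The lowest adjusted p among the 37 was 0.067, for Nop14. At an unadjusted limma p under 0.05, 7 of the 37 were lower and 0 were higher, against 8.06% lower and 8.61% higher of all genes. That share was not computed for the brighter genes, which passed the adjusted threshold more often than all genes. The count of 7 therefore has no comparison with genes of like brightness. The log2 fold change, siMnSOD minus siScramble, was negative for 28 and positive for 9 of the 37 (positive for 15 with the arrays centred on their medians), with a median of -0.13 and a range of -0.78 to 0.30, beside a median of 0.01 over all genes. All 37 were bright, with a lowest log2 intensity of 7.29 on any array, and the median of the 10050 brighter genes was likewise 0.01. On array 3 of each group the list behaved differently from arrays 1 and 2, as the map of the 37 genes on each array shows.

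**Figure D1:**
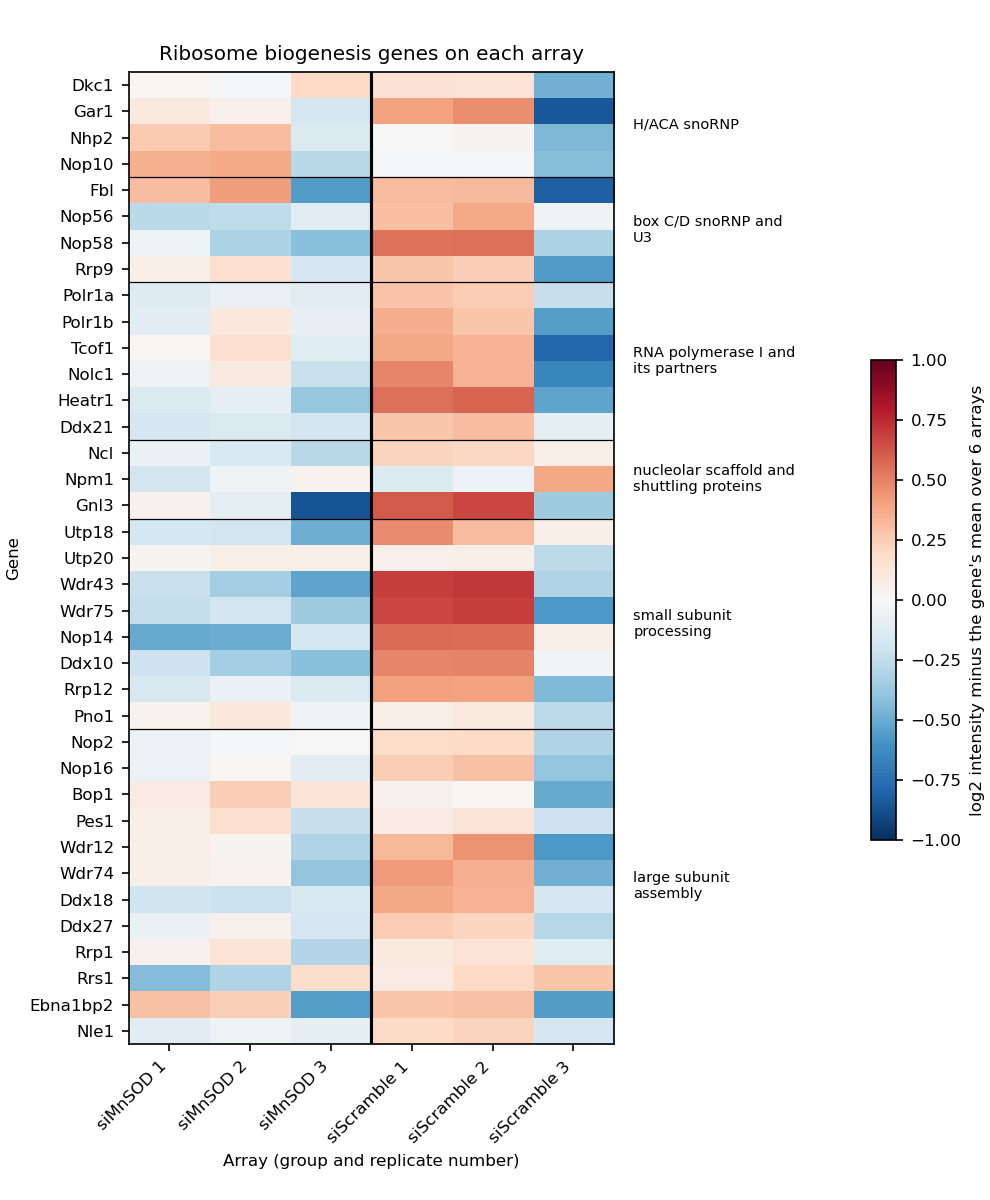
Heat map of the log2 intensity of each of the 37 genes on the 3 siMnSOD and the 3 siScramble arrays, minus the gene's mean over the 6 arrays, grouped by role. The siScramble 1 and 2 columns are mostly red, and the siScramble 3 column is mostly blue: it was below both other siScramble arrays for 35 of 37 genes.

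Within replicate numbers, siMnSOD was below siScramble for 33 of 37 genes in number 1, for 30 in number 2 and for 13 in number 3. Over all genes the same shares were 46.7%, 49.0% and 48.7%, and over those brighter than the median 47.1%, 46.4% and 51.8%. The median log2 difference over the 37 genes was -0.32 in number 1, -0.28 in number 2 and 0.11 in number 3, beside 0.02, 0.00 and 0.01 over all genes. Thus 29 genes were lower in both numbers 1 and 2 (31.7% of all and 37.6% of the brighter genes were), 18 of these were higher in number 3 (11.9% of all and 10.9% of the brighter genes had that pattern), and 11 were lower in all 3 numbers (19.8% of all and 26.7% of the brighter genes were). Nhp2, Nop10 and Bop1 were higher in siMnSOD in all 3 numbers. With 1 array per group in each number, the difference between the numbers was not tested.

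**Figure D2:**
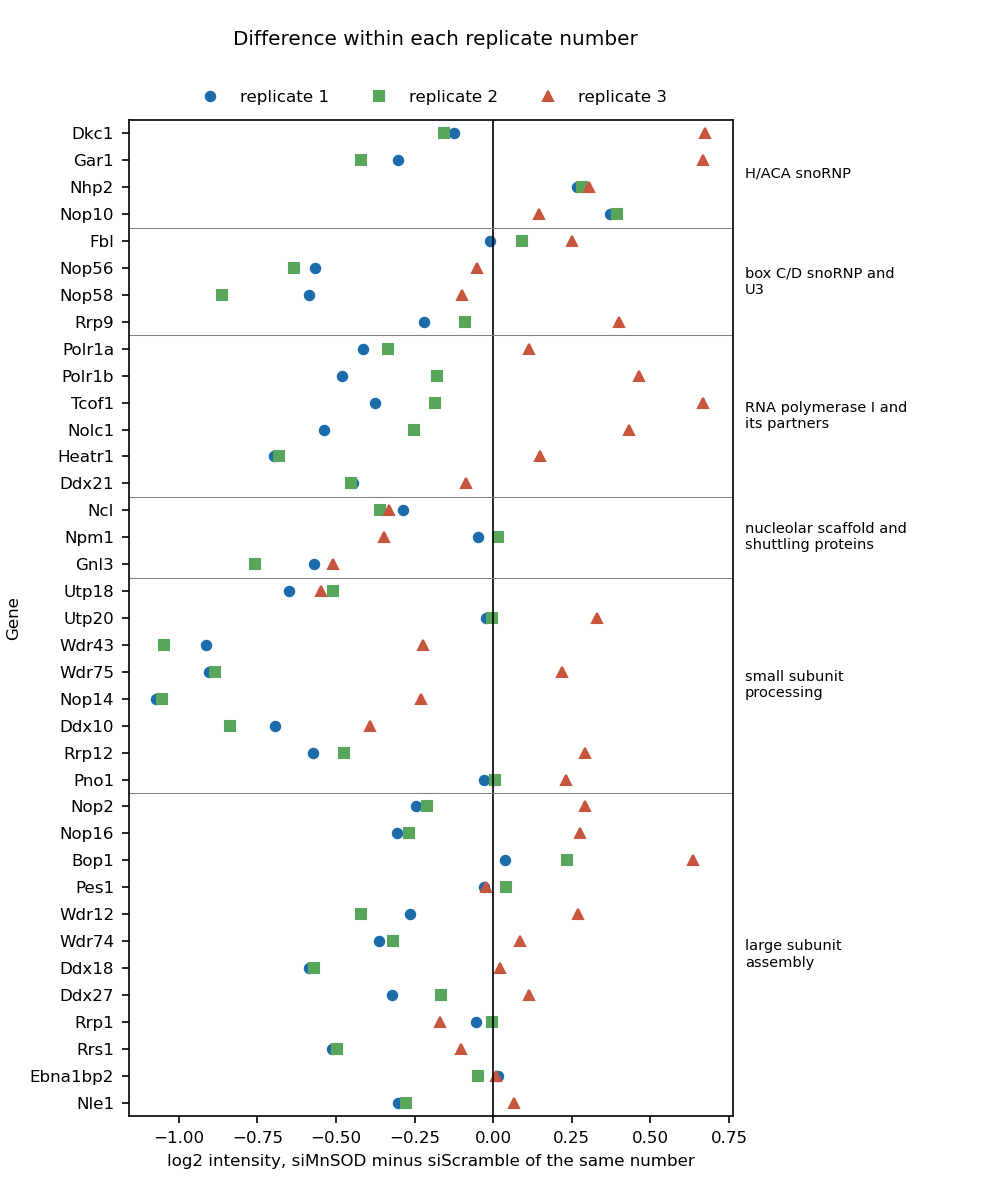
Difference in log2 intensity, siMnSOD minus siScramble of the same replicate number, for each of the 37 genes (circles number 1, squares number 2, triangles number 3). Circles and squares lie close together and mostly left of 0, and triangles lie right of 0 for 24 genes.

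The array that differed most was siScramble 3. Deviations were taken from the mean of arrays 1 and 2 of the same group. Over the 37 genes the median log2 deviation was -0.16 for siMnSOD 3 (range -0.93 to 0.54) and -0.53 for siScramble 3 (range -1.28 to 0.48). Over all genes the medians were 0.08 for siMnSOD 3 and 0.10 for siScramble 3. Over the genes brighter than the median they were -0.05 and -0.03. siMnSOD 3 was the lowest of its group for 24 of 37 genes, against 31.7% of all genes, and siScramble 3 was the lowest of its group for 35 of 37, against 33.7% of all genes. The exceptions in siScramble were Npm1 and Rrs1. Among the genes brighter than the median, 46.5% were lowest on siMnSOD 3 and 48.8% on siScramble 3. The spread between arrays differed too: the median SD over the 37 genes was 0.14 in siMnSOD and 0.31 in siScramble, and it was larger in siScramble for 32 of 37. Arrays 1 and 2 differed from each other by a median of 0.07 in siMnSOD (at most 0.27) and of 0.03 in siScramble (at most 0.16).

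Which arrays entered the fit set the number of calls. With replicates 1 and 2 of each group only, 20 of the 37 genes (54.1%) passed the test downward, against 9.69% of all genes and 17.4% of those brighter than the median, and 1 gene, Nop10, passed upward, against 11.8% and 22.1%. The 20 were Ddx10, Ddx18, Ddx21, Gar1, Gnl3, Heatr1, Ncl, Nle1, Nolc1, Nop14, Nop56, Nop58, Polr1a, Rrp12, Rrs1, Utp18, Wdr12, Wdr43, Wdr74 and Wdr75, with log2 fold changes of -1.06 to -0.29. With siScramble 3 alone left out, 11 passed downward (Ddx10, Ddx18, Ddx21, Heatr1, Nop14, Nop56, Nop58, Rrp12, Utp18, Wdr43 and Wdr75) and 0 upward, against 5.61% of all genes in each direction and, of those brighter than the median, 10.4% downward and 10.8% upward. With all 6 arrays and the replicate number as a block, 3 passed downward, namely Utp18 (adjusted p = 0.028), Gnl3 (0.030) and Ddx10 (0.042), and 0 passed upward, against 3.12% and 4.02% of all genes and 5.85% and 7.76% of those brighter than the median. The blocked share of the 37 genes was near that of other bright genes, and the share from replicates 1 and 2 was further from it. Quantile normalization gave 2 lower (Nop14 and Utp18), against 1.97% lower and 2.59% higher of all genes, and a fit of bright probe sets alone gave 1 lower (Nop14), against 4.62% lower and 5.85% higher of the genes it tested. The fit of replicates 1 and 2 compares 2 arrays with 2, so it describes those arrays. It leaves out the number in which Sod2 differed most: -2.49 in number 3, against -1.33 and -1.07 in numbers 1 and 2. Any relation between the depth of silencing and the 37 genes was not tested.

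**Figure D3:**
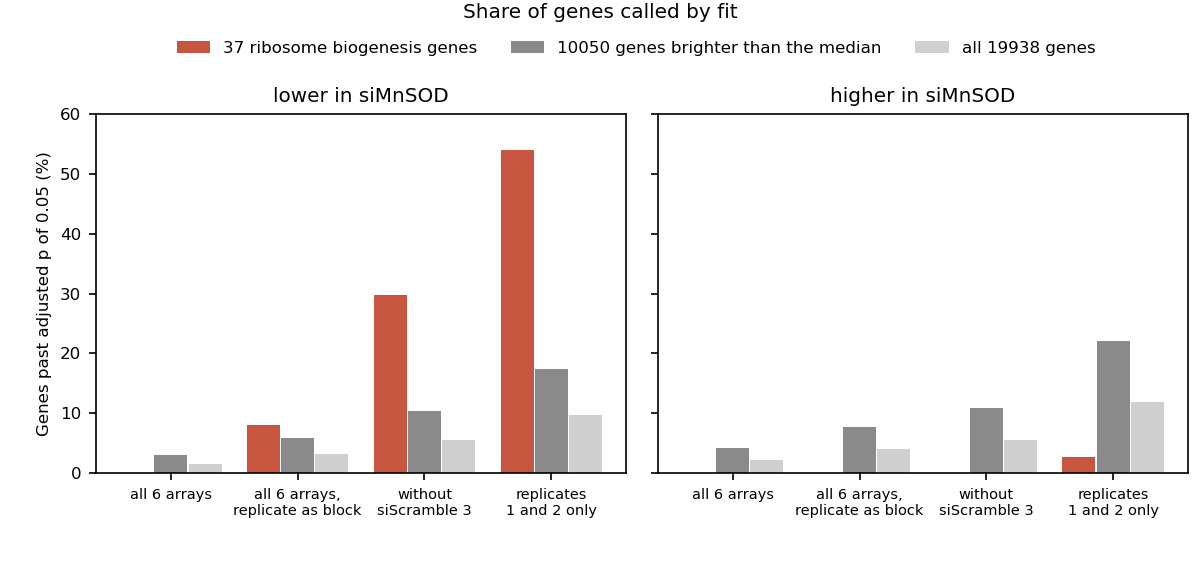
Percent of genes past an adjusted p of 0.05, lower (left panel) or higher (right panel) in siMnSOD, under 4 choices of arrays and model, for the 37 ribosome biogenesis genes, the 10050 genes brighter than the median, and all 19938 genes. No bar stands for the 37 genes with all 6 arrays, and the bar for lower genes reaches 54.1% with replicates 1 and 2 only.

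The genes of small-subunit processing held the 3 largest differences of the list. This group of 8 works in or after the small subunit processome, the assembly on the 5′ part of the precursor RNA. Its log2 fold changes were negative for 6 and positive for 2, with a median of -0.55, and its median difference was -0.67, -0.67 and -0.00 in numbers 1, 2 and 3. None of the 8 passed with all 6 arrays and 6 passed downward with replicates 1 and 2 only.

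Nop14, a processome protein that in yeast is needed for 18S rRNA production, had log2 intensities of 9.13, 9.14 and 9.46 in siMnSOD cells, against 10.20, 10.19 and 9.69 in siScramble cells. All 3 siMnSOD arrays were below all 3 siScramble arrays, and the gap was narrowest in number 3. Its mean was 9.24 ± 0.19 in siMnSOD and 10.03 ± 0.29 in siScramble (SD, n = 3 each), a log2 fold change of -0.78 (SE 0.18, 95% interval -1.21 to -0.36, limma adjusted p = 0.067), or 58.1% of the siScramble level. It passed with replicates 1 and 2 only (-1.06, limma adjusted p = 0.00092), but not with the block (adjusted p = 0.085). Ddx10, a helicase whose yeast relative Dbp4 acts on the U14 snoRNA, had 8.73, 8.60 and 8.52 in siMnSOD, against 9.42, 9.43 and 8.91 in siScramble. Its groups did not overlap either. Its log2 fold change was -0.64 (SE 0.17, 95% interval -1.04 to -0.25, limma adjusted p = 0.098).

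Utp18, a WD-repeat protein of the processome, differed by nearly the same amount in each number. It had 8.54, 8.53 and 8.23 in siMnSOD, against 9.19, 9.04 and 8.78 in siScramble, so siMnSOD was lower by differences of -0.65, -0.51 and -0.55 and the groups did not overlap. Replicate 3 was the lowest array in both groups. The fitted log2 fold change was -0.57 (SE 0.15, 95% interval -0.93 to -0.21, limma adjusted p = 0.10), and with the replicate block the SE was 0.08 and the adjusted p 0.028. Wdr43, known as Utp5 in yeast and also a WD-repeat protein of the processome, had 10.84, 10.72 and 10.54 in siMnSOD, against 11.76, 11.77 and 10.76 in siScramble. Here siScramble 3 lay among the siMnSOD arrays. Wdr43 had a log2 fold change of -0.73 (SE 0.28, 95% interval -1.39 to -0.07, limma adjusted p = 0.25) with all arrays and -0.98 (limma adjusted p = 0.0016) with replicates 1 and 2 only.

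The other 4 genes of this group had log2 fold changes of -0.52 to 0.10. Wdr75, known as Utp17 in yeast, had 9.02, 9.07 and 8.90 in siMnSOD, against 9.92, 9.95 and 8.68 in siScramble. Its siScramble 3 value was the lowest of all 6 arrays, and its fold change was -0.52 with all arrays and -0.89 with replicates 1 and 2 only. Rrp12, which in yeast takes part in late maturation and export of subunits, had 9.36, 9.45 and 9.38 in siMnSOD, against 9.94, 9.93 and 9.09 in siScramble, again with siScramble 3 lowest. Utp20, a large scaffold of the processome, stood in contrast, with 9.54, 9.57 and 9.58 in siMnSOD, against 9.56, 9.57 and 9.25 in siScramble. So did Pno1, a late small-subunit factor that helps the final cut of 18S rRNA, with 9.10, 9.17 and 9.03 in siMnSOD, against 9.13, 9.16 and 8.80 in siScramble. Both differed by -0.01 with replicates 1 and 2 only, where the largest difference of the group was over 1 on the log2 scale.

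**Figure D4:**
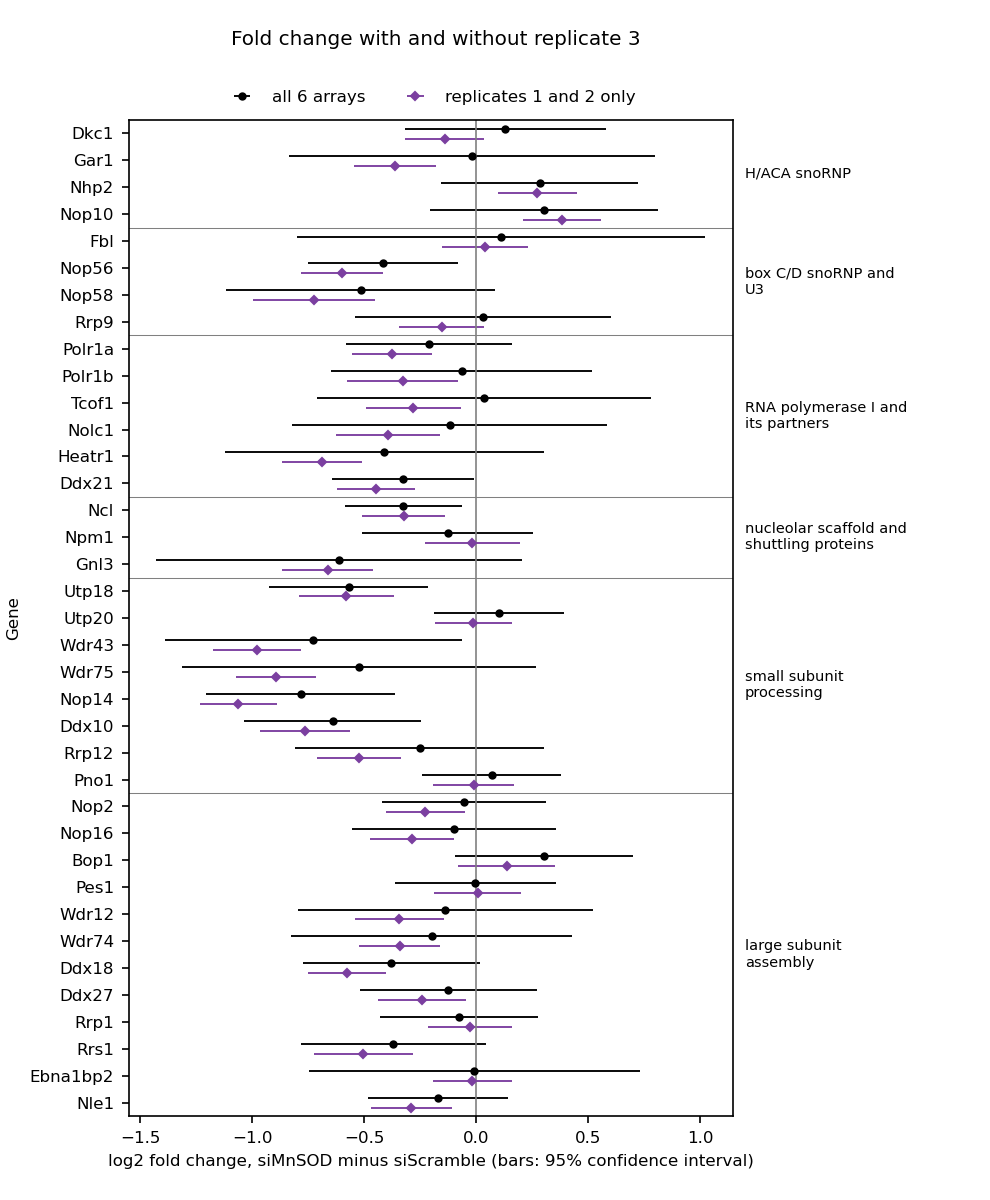
Log2 fold change, siMnSOD minus siScramble, with its 95% confidence interval for each of the 37 genes, from all 6 arrays (circles) and from replicates 1 and 2 only (diamonds). Most diamonds lie left of their circles, and the intervals with all 6 arrays are wider; Nop14 is furthest left in both.

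Promoters of this group are shown because 4 of its genes share a 6-base motif and have fold changes of both signs. RefSeq windows on GRCm38.p6 from 250 bases before to 50 bases after the gene start were available for 31 of the 37 genes. CACGTG, the palindromic E-box that Myc and other factors can bind, occurred in 7 of these 31 windows (22.6%: Nle1, Nop2, Pes1, Pno1, Utp18, Utp20 and Wdr43), against 9.5% of the windows of 15614 array genes. The windows below run 5′ to 3′ along the gene's strand, with CACGTG in capitals, for Utp18 (chr11:93885717-93886016, minus strand), Wdr43 (chr17:71615965-71616264, plus strand), Utp20 (chr10:88826765-88827064, minus strand) and Pno1 (chr11:17211540-17211839, minus strand).
Utp18: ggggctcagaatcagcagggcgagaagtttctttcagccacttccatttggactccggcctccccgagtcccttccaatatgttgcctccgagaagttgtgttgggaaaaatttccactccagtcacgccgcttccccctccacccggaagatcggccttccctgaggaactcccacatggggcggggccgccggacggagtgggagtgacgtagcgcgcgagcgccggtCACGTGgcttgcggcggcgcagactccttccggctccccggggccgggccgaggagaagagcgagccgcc
Wdr43: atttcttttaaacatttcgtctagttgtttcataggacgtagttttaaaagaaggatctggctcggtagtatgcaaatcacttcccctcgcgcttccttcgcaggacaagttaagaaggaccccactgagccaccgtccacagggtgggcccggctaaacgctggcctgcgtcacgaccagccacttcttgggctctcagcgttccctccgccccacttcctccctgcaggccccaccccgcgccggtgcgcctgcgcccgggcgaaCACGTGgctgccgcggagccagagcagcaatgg
Utp20: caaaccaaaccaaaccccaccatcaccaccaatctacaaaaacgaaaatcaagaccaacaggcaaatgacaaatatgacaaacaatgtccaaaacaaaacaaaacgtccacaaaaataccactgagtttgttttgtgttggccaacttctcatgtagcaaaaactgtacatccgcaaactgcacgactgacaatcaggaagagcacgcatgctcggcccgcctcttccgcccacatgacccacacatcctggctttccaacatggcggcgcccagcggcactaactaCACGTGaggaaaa
Pno1: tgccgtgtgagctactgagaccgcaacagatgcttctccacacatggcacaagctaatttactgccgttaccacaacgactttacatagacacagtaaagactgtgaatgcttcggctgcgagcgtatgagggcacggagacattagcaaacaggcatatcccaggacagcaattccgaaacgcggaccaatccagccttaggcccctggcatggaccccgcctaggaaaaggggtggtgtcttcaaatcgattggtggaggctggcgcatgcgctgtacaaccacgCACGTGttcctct
The motif began at position -20 from the start site in Utp18, at 17 in Wdr43 and at 37 in both Utp20 and Pno1. Utp18 and Wdr43 had log2 fold changes of -0.57 and -0.73, and Utp20 and Pno1 had fold changes of 0.10 and 0.07 with the same motif. Over the 31 genes, the median log2 fold change was -0.05 for the 7 with CACGTG and -0.17 for the 24 without. The heptamer CCGGAAG, the core of ETS-family sites, occurred on either strand in 10 of the 31 windows (32.3%), against 13.6% of all windows. The hexamer GGGCGG, the GC box, occurred on either strand in 21 (67.7%), against 52.9% of all windows. The median log2 fold change was -0.12 with CCGGAAG and -0.17 without it, and -0.33 with GGGCGG and -0.01 without it. These matches overlap in the same genes and describe letters in a window, not bound sites.

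The 4 proteins of the box C/D snoRNP and of the U3 particle divided into a pair with lower values and a pair near 0. Nop56, a core scaffold of box C/D particles, had 11.02, 11.03 and 11.18 in siMnSOD, against 11.58, 11.67 and 11.23 in siScramble. The groups did not overlap, though siMnSOD 3 and siScramble 3 lay only 0.05 apart. This gave a log2 fold change of -0.42 (SE 0.14, 95% interval -0.75 to -0.08, limma adjusted p = 0.19). Nop58, its partner scaffold, had 10.47, 10.20 and 10.09 in siMnSOD, against 11.05, 11.06 and 10.19 in siScramble, with siScramble 3 among the siMnSOD values. Its log2 fold change was -0.52 (SE 0.25, 95% interval -1.12 to 0.08, limma adjusted p = 0.41). Both passed downward with replicates 1 and 2 only, at -0.60 for Nop56 and -0.72 for Nop58.

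Fbl, the methyltransferase fibrillarin, had 9.73, 9.84 and 8.86 in siMnSOD, against 9.74, 9.75 and 8.61 in siScramble. Replicate 3 was far below replicates 1 and 2 in both groups, and within each number the groups were close. For Fbl the log2 fold change was 0.11 (SE 0.38, 95% interval -0.80 to 1.02), and 0.04 with replicates 1 and 2 only. Rrp9, the U3-specific protein, had 8.36, 8.46 and 8.14 in siMnSOD, against 8.58, 8.55 and 7.73 in siScramble, with a log2 fold change of 0.03 (95% interval -0.54 to 0.60). Its sign turned to -0.15 with replicates 1 and 2 only, which did not pass.

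The H/ACA snoRNP was the 1 group in which most fold changes were positive, 3 of 4, with a median of 0.21. Dyskerin (Dkc1) is its pseudouridine synthase, and Nhp2, Nop10 and Gar1 are the other core proteins, which are also found in telomerase. Nop10 had 10.63, 10.65 and 9.99 in siMnSOD, against 10.26, 10.26 and 9.85 in siScramble, and Nhp2 had 10.16, 10.21 and 9.75 in siMnSOD, against 9.90, 9.93 and 9.45 in siScramble. Both were higher in siMnSOD within each number, but the groups overlapped because replicate 3 was the lowest array of each group. The log2 fold change was 0.30 for Nop10 (SE 0.21, 95% interval -0.21 to 0.81, limma adjusted p = 0.69) and 0.28 for Nhp2 (SE 0.19, 95% interval -0.16 to 0.72, limma adjusted p = 0.62). With replicates 1 and 2 only, Nop10 passed at 0.38 (limma adjusted p = 0.016) and Nhp2 did not pass at 0.27.

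Dkc1 and Gar1 had the opposite order in numbers 1 and 2. Dkc1 had 9.43, 9.38 and 9.60 in siMnSOD, against 9.55, 9.54 and 8.93 in siScramble, and Gar1 had 8.97, 8.91 and 8.69 in siMnSOD, against 9.27, 9.33 and 8.02 in siScramble. In both genes siMnSOD was lower in numbers 1 and 2 and higher, by 0.67, in number 3, where siScramble had its lowest value. The log2 fold change was 0.13 for Dkc1 (95% interval -0.32 to 0.58) and -0.02 for Gar1 (95% interval -0.84 to 0.80). With replicates 1 and 2 only it was -0.14 for Dkc1 and -0.36 for Gar1, of which Gar1 passed.

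Among the 6 genes of RNA polymerase I and its partners, 5 fold changes were negative and the median was -0.17. Ddx21, an RNA helicase that joins polymerase I transcription with rRNA processing, had 10.46, 10.48 and 10.45 in siMnSOD, against 10.91, 10.94 and 10.53 in siScramble. The siMnSOD arrays lay within 0.04 of each other and below every siScramble array. This gave a log2 fold change of -0.33 (SE 0.13, 95% interval -0.65 to -0.01, limma adjusted p = 0.29). Heatr1, known as Utp10 in yeast and needed for early processing, had 9.59, 9.64 and 9.36 in siMnSOD, against 10.29, 10.32 and 9.21 in siScramble. Its siScramble 3 value was the lowest of all 6, and the log2 fold change was -0.41 (SE 0.30, 95% interval -1.12 to 0.30, limma adjusted p = 0.70).

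Polr1a, the largest subunit of the polymerase, had 9.30, 9.35 and 9.31 in siMnSOD, against 9.71, 9.68 and 9.20 in siScramble, and its log2 fold change was -0.21 (95% interval -0.58 to 0.16). Nolc1, the phosphoprotein Nopp140 that binds snoRNPs, had 9.56, 9.71 and 9.39 in siMnSOD, against 10.10, 9.96 and 8.96 in siScramble, and its log2 fold change was -0.12 (95% interval -0.82 to 0.58). In both, siScramble 3 was the lowest array. Polr1b, the other large catalytic subunit, had a log2 fold change of -0.06 and Tcof1, the treacle protein that anchors polymerase I activity in the nucleolus, one of 0.04. Tcof1 had 8.12 on siMnSOD 3 and 7.46 on siScramble 3, the last being more than 1 below either other siScramble array. The sign of Tcof1 turned to -0.28 with replicates 1 and 2 only and to -0.35 without siScramble 3. Ddx21, Heatr1, Polr1a and Nolc1 passed downward with replicates 1 and 2 only, and Polr1b and Tcof1 did not.

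The 3 scaffold and shuttling proteins of the nucleolus all had negative fold changes, with a median of -0.33. Ncl, nucleolin, which binds the precursor RNA and ribosomal DNA chromatin, had 11.28, 11.19 and 11.07 in siMnSOD, against 11.56, 11.55 and 11.40 in siScramble. The groups did not overlap, and the differences within numbers were -0.29, -0.36 and -0.33. For Ncl the log2 fold change was -0.33 (SE 0.11, 95% interval -0.59 to -0.07, limma adjusted p = 0.19), with an adjusted p of 0.081 under the block. Gnl3, the GTPase nucleostemin, had 10.15, 10.01 and 9.24 in siMnSOD, against 10.72, 10.77 and 9.75 in siScramble. Replicate 3 was the lowest array in both groups, and siMnSOD was lower within each number, by differences of -0.57, -0.76 and -0.51. Its log2 fold change of -0.61 had an SE of 0.34 (95% interval -1.43 to 0.20, limma adjusted p = 0.51) without the block and of 0.09 (adjusted p = 0.030) with it. Npm1, the histone chaperone nucleophosmin, had 11.11, 11.25 and 11.33 in siMnSOD, against 11.16, 11.24 and 11.68 in siScramble, with a log2 fold change of -0.13 (95% interval -0.51 to 0.26). It is 1 of the 2 genes whose siScramble 3 value was not the lowest of its group.

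The 12 genes of large-subunit assembly had the median closest to 0 of the 6 groups, at -0.11, with 11 negative fold changes. Ddx18, a helicase whose yeast relative is Has1, had 10.52, 10.50 and 10.57 in siMnSOD, against 11.11, 11.07 and 10.55 in siScramble, and a log2 fold change of -0.38 (SE 0.17, 95% interval -0.77 to 0.01, limma adjusted p = 0.33). Rrs1, which in yeast brings the 5S particle into the large subunit, had 8.06, 8.19 and 8.67 in siMnSOD, against 8.57, 8.69 and 8.77 in siScramble, and a log2 fold change of -0.37 (SE 0.17, 95% interval -0.78 to 0.04, limma adjusted p = 0.38). Rrs1 was the reverse of most genes in that replicate 3 was the highest array in each group. Nle1, known as Rsa4 in yeast and a substrate of a large remodelling ATPase, had 7.35, 7.41 and 7.36 in siMnSOD, against 7.65, 7.68 and 7.29 in siScramble, with a log2 fold change of -0.17 (95% interval -0.49 to 0.14).

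Bop1, a member of the PeBoW complex with Pes1 and Wdr12, was the exception in the large-subunit group. It had 9.53, 9.69 and 9.58 in siMnSOD, against 9.49, 9.46 and 8.94 in siScramble, so all siMnSOD arrays were above all siScramble arrays, by 0.04 at the closest. The fitted log2 fold change was 0.30 (SE 0.17, 95% interval -0.09 to 0.70, limma adjusted p = 0.50), and 0.14 with replicates 1 and 2 only. Its partners Pes1 and Wdr12 had log2 fold changes of -0.00 and -0.14. The other 8 genes of the group (those partners, the rRNA methyltransferase Nop2, Nop16, Wdr74, the helicase Ddx27, Rrp1 and Ebna1bp2) had fold changes of -0.20 to 0.00 and no adjusted p below 0.95. With replicates 1 and 2 only, Ddx18, Rrs1, Nle1, Wdr12 and Wdr74 passed downward.

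Counted over the 37 genes, 6 had all siMnSOD arrays below all siScramble arrays (Ddx10, Ddx21, Ncl, Nop14, Nop56 and Utp18), 1 had them all above (Bop1), and 30 overlapped. Of all genes, 9.73% were separated downward and 11.1% upward, and of those brighter than the median 16.5% and 19.0%, so the count of 6 is near that of other bright genes. Where a gene did not pass, the median half-width of the 95% interval was 0.44 on the log2 scale, so smaller differences were not resolved for a typical member. That interval is not adjusted for the number of tests. Larger differences also failed to pass, such as -0.78 for Nop14 (limma adjusted p = 0.067) and -0.61 for Gnl3 (0.51). For 3 genes a dimmer probe set gave a second reading: 0.18 for Fbl, -0.22 for Ddx18 and -0.28 for Wdr12. The dimmer set of Wdr12 had 7.88, 7.87 and 8.15 in siMnSOD, against 8.25, 8.30 and 8.19 in siScramble, with no overlap. Its brightest set, used in the counts above, overlapped and differed by 0.27 in number 3. Which probe set of these genes reads the gene better was not tested.

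Some of these genes also hold snoRNA genes, the RNA parts of the same particles, within their spans. By RefSeq spans on GRCm38.p6, 6 of the 37 (Nop58, Ncl, Nop56, Gnl3, Wdr43 and Dkc1) contain 18 snoRNA genes, of which 4 were measured and none was called. Snord82, inside Ncl, had 5.57, 5.53 and 4.65 in siMnSOD, against 5.74, 6.18 and 7.26 in siScramble, with no overlap and a log2 fold change of -1.15 (SE 0.42, limma adjusted p = 0.23). Snora75, also inside Ncl, had 7.61, 6.92 and 6.23 in siMnSOD, against 8.03, 8.71 and 7.29 in siScramble, and a log2 fold change of -1.09 (SE 0.45, limma adjusted p = 0.29). Both host and guests had lower siMnSOD values in every number. Snord53, inside Wdr43, and Snord57, inside Nop56, had log2 fold changes of -0.76 and -0.38.

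8 other lists put the 37 genes in the wider pathway, with 211 of their 256 genes measured. Of the 211, 2 passed upward (0.948%) and 5 downward (2.37%) with all 6 arrays, against 2.17% and 1.58% of all genes. Of the genes brighter than the median, 4.18% passed upward and 3.02% downward in that fit. Both shares of the 211 were below those of the brighter genes. With replicates 1 and 2 only, 21 passed upward (9.95%) and 56 downward (26.5%), against 11.8% and 9.69% of all genes and 22.1% and 17.4% of those brighter than the median. With the replicate block, 9 of the 211 passed upward and 15 downward, against 4.02% and 3.12% of all genes and 7.76% and 5.85% of the brighter ones. The further small-subunit genes (49 measured) had a median log2 fold change of -0.09 and the further large-subunit genes (54 measured) one of -0.18. In these, 20 (40.8%) and 24 (44.4%) passed downward with replicates 1 and 2 only, against 9.69% of all genes and 17.4% of the brighter ones. The 56 cytosolic ribosomal protein genes, whose products the pathway assembles, had a median of -0.04, with 1 lower and 3 higher in that fit. RNase MRP and RNase P subunits (10 measured) had a median of 0.35, and snoRNP assembly factors (9 measured) one of 0.22, positive in each replicate number.

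**Figure D5:**
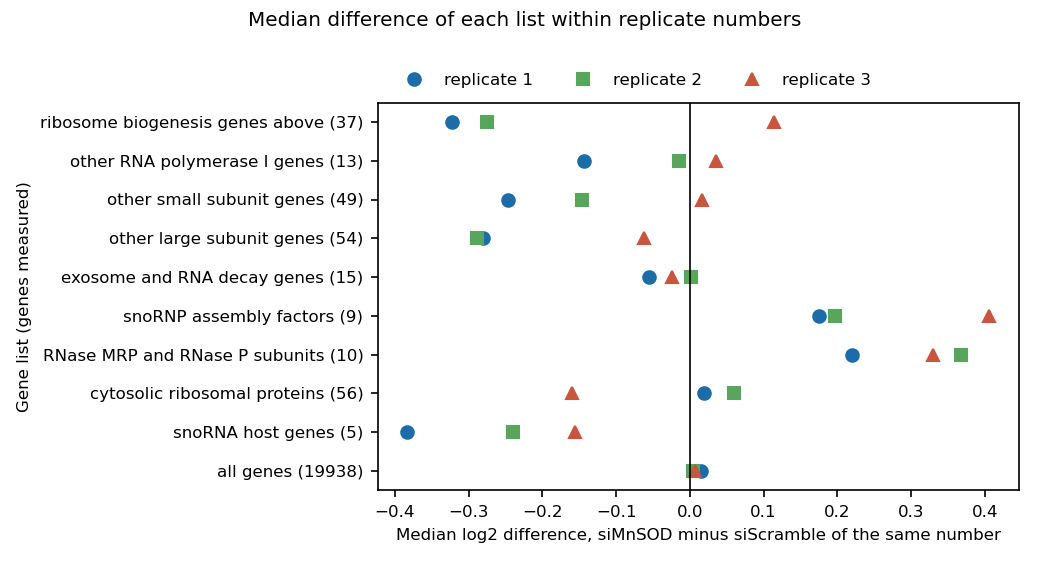
Median log2 difference, siMnSOD minus siScramble of the same replicate number, for the 37 genes, for 8 other lists and for all genes, with the number of genes measured in parentheses. The 37 genes lie at -0.32, -0.28 and 0.11, whereas RNase MRP and RNase P subunits lie right of 0 in all 3 numbers.

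The 7 genes of the other lists that passed with all 6 arrays had mixed directions. Taf1b, a subunit of the promoter selectivity factor of RNA polymerase I, fell by 0.75 (SE 0.12, limma adjusted p = 0.022), while Polr1c, a subunit shared by polymerases I and III, rose by 0.59 (SE 0.11, adjusted p = 0.036). Riok3, a kinase bound to small-subunit precursors, fell by 0.69 (SE 0.13, adjusted p = 0.039), and Nol8, a nucleolar RNA-binding protein, fell by 1.26 (SE 0.25, adjusted p = 0.045). Zcchc7, the relative of yeast Air1 in the TRAMP decay complex, fell by 0.90 (SE 0.14, adjusted p = 0.023), and Pop1, the large protein of RNase MRP and RNase P, rose by 0.86 (SE 0.17, adjusted p = 0.045). Gas5, a noncoding host of box C/D snoRNAs, had 12.19, 11.88 and 11.36 in siMnSOD, against 12.84, 12.93 and 12.84 in siScramble, and fell by 1.06 (SE 0.21, adjusted p = 0.044). Each of these calls was lost on leaving out siMnSOD 2, siScramble 1 or siScramble 2, and also siMnSOD 1 (all but Nol8) or siMnSOD 3 (Taf1b, Polr1c, Riok3 and Nol8), with adjusted p of up to 0.12 for Taf1b, 0.17 for Polr1c, 0.18 for Riok3, 0.16 for Nol8, 0.11 for Zcchc7, 0.16 for Pop1 and 0.18 for Gas5. Centring the arrays on their medians ended the calls of Taf1b, Polr1c, Riok3, Nol8 and Gas5 (adjusted p of 0.068 to 0.11), quantile normalization and a variance trend ended that of Pop1 (0.055 and 0.050), testing all probe sets ended those of Polr1c, Riok3, Nol8, Pop1 and Gas5 (0.063 to 0.077), and averaging probe sets ended that of Gas5, whose log2 fold change was then -0.41 (adjusted p = 0.38).

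Of the next genes by p in these lists, 16 are given here. None of the 16 passed in the main fit (all 6 arrays, no block), and 11 passed with the replicate block. Some passed in other unblocked fits. These were, among others, Sbds and Noc3l with quantile normalization (limma adjusted p = 0.043 and 0.046) and Nop9 with centring (0.029). Tsr2 passed with bright probe sets only (0.044) and Twistnb with replicates 1 and 2 only (0.0019). Other genes of these lists are left out, among them C1d (log2 fold change 0.43, limma adjusted p = 0.24 with the block) and Exosc8. The log2 fold change of Exosc8 was 0.58 to 1.26 on leaving out single arrays. The 16 hold no gene of the exosome and RNA decay list. The 16 were picked by small p, so 11 of 16 is no share of the lists. With the block, 4.02% of all genes passed upward and 3.12% downward, and 7.76% and 5.85% of those brighter than the median. In polymerase I, Polr1d had a log2 fold change of 0.55 (limma adjusted p = 0.14), which was 0.29 when its probe sets were averaged, and Twistnb one of -0.77 (limma adjusted p = 0.16). Among subunit assembly factors, Tsr2 had -0.52, Nol10 -0.52, Nop9 0.56, Sbds -0.51, Rbm34 -0.49 and Noc3l -0.68, with limma adjusted p of 0.054 to 0.093. The snoRNP assembly helicase Ruvbl2 had a log2 fold change of 0.43 and Wrap53, which takes box H/ACA RNAs to Cajal bodies, one of 0.69, while Nufip1 had one of -0.58. Of the RNase P proteins, Rpp30 had 0.45 and Rpp38 -0.63. Snhg5, another snoRNA host, had -0.95, and among ribosomal proteins Rpl12 had -0.71 and Rpl14 0.49. With the block the limma adjusted p was 0.035 for Polr1d, 0.025 for Twistnb, 0.046 for Nol10, 0.032 for Nop9, 0.044 for Sbds, 0.037 for Noc3l, 0.043 for Ruvbl2, 0.037 for Wrap53, 0.028 for Nufip1, 0.012 for Snhg5 and 0.045 for Rpl14. Tsr2, Rbm34, Rpp30, Rpp38 and Rpl12 passed neither in the main fit nor with the block. Rpl12 was at -0.43 without siMnSOD 3.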

How the data were processed

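Total RNA of 6 arrays (3 siMnSOD, 3 siScramble) was measured on Affymetrix Mouse Gene 1.0 ST chips. The deposited values were probe set intensities on a linear scale, processed by the authors before deposit. The submitters' processing notes name RMA and the design text names MAS5, so which made the values is not settled, and array medians of 26.8 to 33.6 were not equalised here. Of 35557 probe sets, 21789 had 1 gene symbol in the platform annotation, 1621 several and 12147 none. Values were taken to log2 without further normalization, and the model, with group as the only term, ran over 21559 probe sets in limma 3.58.1 under R 4.3.3, with moderated tests (eBayes) and Benjamini-Hochberg adjustment over all of them. The brightest probe set stood for a gene. Simulated data with known changes were used to check the fit. Their noise was independent between genes and arrays, with no shared deviation like that of the replicate 3 arrays, so the check does not cover it. With 3 arrays a group an exact permutation test of a single value cannot go below a p of 0.1, so calls come from limma.

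The members and lists were chosen with earlier results of these data known. Up to 4 genes by smallest p were named per role of the members and per other list, Sod2 as the check of the knockdown, and further members where they complete a count. Same-numbered arrays deviated together from their group means (r = 0.298, 0.2864 and 0.5586 for numbers 1, 2 and 3). The crossed pairs of numbers 1 and 2 had higher r (0.4655 and 0.4067) than their same-numbered pairs. These values therefore do not single out the pairing of numbers 1 and 2, and no label says what a number marks. That the numbers pair the arrays was an assumption, and the blocked fit was run beside the unblocked one. There were 14 alternatives in all. Promoter windows, gene spans and symbols came from RefSeq tables on GRCm38.p6.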

Additional observations from a re-analysis of the deposited data

How the results depend on the processing

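The limits that bear on the 37 genes are 3 arrays a group, the array siScramble 3, and a normalization the sources do not settle. With all 6 arrays 0 of the 37 passed upward and 0 downward. Quantile normalization gave 2 lower (Nop14 and Utp18), testing only bright probe sets 1 (Nop14), the replicate block 3, and replicates 1 and 2 only 20 lower and 1 higher. Leaving out single arrays gave 0 to 11 lower. The median over the 37 genes lay between -0.36 and -0.04 in every alternative run. Over all genes, 432 were higher and 316 lower with all 6 arrays. Testing all probe sets gave 278 higher and 154 lower, the replicate block 801 and 623, replicates 1 and 2 only 2343 and 1932, and leaving out single arrays 52 to 1119 and 25 to 1119. Centring the arrays on their medians gave 365 higher and 140 lower, moved the median of all genes by 0.09, and left 15 of the 37 genes with a positive fold change. In the 8 other lists, 2 higher and 5 lower became 4 higher with bright probe sets only, 1 higher with a variance trend, 1 lower with centring, 0 higher and 2 lower with all probe sets, 9 and 15 with the block, 21 and 56 with replicates 1 and 2 only, and 0 to 6 and 0 to 36 on leaving out single arrays. Signs turned for some genes, most of them near 0. With replicates 1 and 2 only, the log2 fold change was -0.14 for Dkc1, -0.15 for Rrp9, -0.28 for Tcof1, -0.0125 for Utp20, -0.0120 for Pno1 and 0.0057 for Pes1. With centring it was 0.0653 for Gar1, 0.0203 for Polr1b, 0.0304 for Nop2, 0.0814 for Pes1, 0.0090 for Rrp1, 0.0765 for Ebna1bp2 and 0.0177 for the snoRNA host Snhg17 (-0.07 without centring). On leaving out single arrays the range was -0.0763 to 0.24 for Dkc1, -0.45 to 0.21 for Gar1, -0.27 to 0.42 for Fbl, -0.25 to 0.18 for Rrp9, -0.36 to 0.10 for Polr1b, -0.35 to 0.24 for Tcof1, -0.48 to 0.0945 for Nolc1, -0.23 to 0.0335 for Npm1, -0.0050 to 0.16 for Utp20, -0.0465 to 0.13 for Pno1, -0.22 to 0.0299 for Nop2, -0.32 to 0.0203 for Nop16, -0.11 to 0.11 for Pes1, -0.46 to 0.0528 for Wdr12, -0.16 to 0.0521 for Rrp1 and -0.29 to 0.26 for Ebna1bp2. The causes were not tested, except that fits on fewer arrays hold fewer samples.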

Other observations

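The array measured 51 snoRNA genes in all, with those in the host genes above among them, a set chosen after its values were seen. With limma 0 of the 51 passed in either direction, and at an unadjusted p under 0.05 7 were lower (13.7%) and 0 higher, against 8.06% lower and 8.61% higher of all genes. The log2 fold change (siMnSOD minus siScramble) was negative for 43 (84.3%, against 47.7% of all genes), with a median of -0.25. Within replicate numbers the median difference was -0.02 in number 1, -0.14 in number 2 and -0.59 in number 3. That order is the opposite of the one over the 37 protein genes, which had -0.32, -0.28 and 0.11. Among the marker lists, Hnf4a, a transcription factor of hepatocyte identity, was the 1 gene called of 12 hepatocyte markers, whose median log2 fold change was 0.10. It had log2 intensities of 9.05, 9.18 and 8.85 in siMnSOD, against 8.07, 8.01 and 7.72 in siScramble (log2 fold change 1.09, limma adjusted p = 0.013). Of 4 biliary markers, Sox9 fell by 0.86 (adjusted p = 0.027), while Krt7 had a log2 fold change of 1.15 and Krt19 one of 0.70 (adjusted p of 0.38 and 0.19), and the list's median was 0.34.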
